A study of Mus musculus with 6 samples.

Results

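The fibroblast growth factor (FGF) genes described here are 5 ligands and 3 receptors of the early mouse limb. The ligands are Fgf4, Fgf8, Fgf9 and Fgf17 of the apical ectodermal ridge and Fgf10 of the mesenchyme, and the receptors are Fgfr1, Fgfr2 and Fgfr3. They were chosen by gene name, and every probe set annotated to them was read. This gave 8 of the 18193 genes on the array and 18 of its 45101 probe sets. Of these probe sets, 15 exceeded the median signal of at least 1 array, and each gene had at least 1 such probe set.

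Outgrowth of the limb bud depends on FGF signals that pass in both directions between ectoderm and mesenchyme. Mesenchymal FGF10 acts on an FGFR2 isoform of the ectoderm and is needed to form the apical ectodermal ridge, the thickened epithelium along the distal rim. The ridge in turn secretes FGF8 and, from its posterior part, FGF4, FGF9 and FGF17, which act on FGFR1 and FGFR2 of the mesenchyme. FGF4 is also part of a loop with Sonic hedgehog (SHH) and the BMP antagonist GREM1, both made by posterior mesenchyme, and retinoic acid (RA) from the body wall opposes the distal FGF signal.

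Forelimb buds of CD1 mouse embryos at E10.5 had been cut into proximal and distal parts. RNA of each was hybridised to 1 Affymetrix array per condition, 6 arrays in all. Control embryos carry the genotype label Ring1A-/-, although their sample description calls them wild type. The dKO embryos were Prx1-Cre; Ring1A-/-; Ring1Bfl/fl, so that by these labels both groups lack RING1A and the dKO also loses RING1B, the other E3 ligase of Polycomb repressive complex 1. Prx1-Cre is active in limb mesenchyme, not in the ectoderm that forms the ridge. The RA embryos were labelled WT and were exposed through the mother, given 100 mg/kg all-trans retinoic acid orally at E10.25. Exposure to RA and the Ring1A label differ together between RA and control and cannot be told apart. Numbers of embryos per array are not given in the sources used here. With 1 array per group, a difference between arrays has no replicate check. All dKO and RA differences were taken against the same 2 control arrays.

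Values are linear signals, scaled so that the trimmed mean of each array is 500. The median signal of an array served as its floor, and it lay between 59.5 and 76.1. Signals below it were set to it before log2 was taken, so a difference that involves such a signal is a bound. A gene entered a comparison if at least 1 of the arrays compared was above its floor, and it was counted as higher or lower at 2-fold or more. The words rose and fell are reserved for genes that passed a limma fit of condition and part over all 6 arrays (adjusted p under 0.05, 12147 genes). Its residual is the disagreement between pairs of arrays, so a pass means agreement between pairs and not between replicates.

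The RA arrays stood apart from the other 4. Xist signal was at most 29.5 on them and at least 3017 on the others, whereas Y-linked Eif2s3y was at least 2783 against at most 12.3. By these genes the RA tissue was male and the control and dKO tissue female, so sex too cannot be told apart from RA exposure. The BioB spike-in control, added independently of the tissue, read at least 1105 on the control and dKO arrays but 84.4 and 103 with RA, so what set the RA arrays apart technically cannot be told apart from RA exposure. The proximal RA array correlated across genes with the other arrays at r = 0.927 to 0.951, against 0.953 to 0.986 among the rest, and its GAPDH 3′/5′ ratio was 1.60 (others 1.28 to 1.39). Its summed signal of 4 somite and body wall markers was 5519, against 598 to 1842 elsewhere. All 6 limb mesenchyme markers were above the floor on every array, as were 12 or 13 of 13 surface ectoderm markers. The part of these differences in the RA results was not tested. Ring1 and Rnf2, which encode RING1A and RING1B, were at 245 to 968 and at 1887 to 2147. No source used here places their probes relative to the deletions, so these signals do not check the genotypes.

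Fgf4 was the member with the widest range. It was 23.1-fold higher distally in control, and its distal signal was 20.5-fold lower in dKO than in control. Fgfr3 had the opposite direction there, being 2.26-fold higher in distal dKO. The 250 bases before a RefSeq start site of each gene (build GRCm38.p6), for Fgfr3 the first of the 2 listed, are printed because these were the largest lower value and the only higher value at 2-fold among the members in dKO. Capitals mark GGGCGG or its complement CCGCCC, the core of GC boxes typical of CpG-rich promoters.
Fgf4, chr7:144861136-144861385, plus strand: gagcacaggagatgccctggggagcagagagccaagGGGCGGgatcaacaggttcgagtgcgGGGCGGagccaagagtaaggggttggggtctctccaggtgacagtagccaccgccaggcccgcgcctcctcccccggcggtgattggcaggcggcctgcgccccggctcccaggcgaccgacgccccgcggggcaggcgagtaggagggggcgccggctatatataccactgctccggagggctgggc
Fgfr3, chr5:33721474-33721723, plus strand: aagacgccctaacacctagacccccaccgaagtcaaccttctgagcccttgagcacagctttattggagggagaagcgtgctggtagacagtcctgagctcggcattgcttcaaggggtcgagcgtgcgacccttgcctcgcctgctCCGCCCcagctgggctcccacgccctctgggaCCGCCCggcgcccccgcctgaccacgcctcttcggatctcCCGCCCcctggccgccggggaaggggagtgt
The Fgf4 window held 2 such matches at 71.2% G and C, and the printed Fgfr3 window held 3 at 66.8%. The window of the other Fgfr3 start site held 2 at 72.8%. The median G and C content of the 32851 windows in the promoter table was 52.4%, and 32.7% of all windows held at least 1 match. Of the 8 genes, 5 matched the table, with 6 windows, and Fgf8, Fgf17 and Fgfr1 did not. AGGTCA and GGGTCA, core letters recognised by nuclear receptors such as those for RA, were searched on both strands and are present in 14.0% and 11.6% of all windows. AGGTCA was in 0 of the 6 member windows, and GGGTCA was in that of Fgf10 only. A match or its absence describes these letters and not binding.

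Fgf4, the posterior ridge ligand, had a signal of 92.7 in proximal control and of 2141 in distal control. The dKO parts had 26.2 proximally and 104 distally, and the RA parts had 39.1 and 1431. Only the distal control and distal RA arrays were high, and the distal dKO signal was close to that of the proximal control. The distal excess was 4.53 on the log2 scale in control and at least 4.51 in RA, because the proximal RA signal was under its floor. In dKO it was at least 0.52, which is at least 1.43-fold.

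Relative to control, distal Fgf4 differed by -4.36 (log2) in dKO and by -0.58 in RA. Proximally, both values were bounds, -0.34 in dKO and -0.56 in RA. Across other scalings, without a floor and with all probe sets averaged, the distal dKO difference stayed between -4.71 and -3.02.

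Of the other three Fgf4 probe sets, a pair that lists the same source sequence as the first was likewise high on the distal control and distal RA arrays alone. Distal control read 1121 and 1148, distal RA 657 and 706, and distal dKO 51.0 and 31.9, both below the floor. The remaining probe set, designed on another mRNA record, was below the floor on all 6 arrays, at 22.4 to 59.5. The Fgf4 result therefore comes from probe sets of 1 source sequence, and the other design neither showed it nor had a measurable level.

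In limma, the distal minus proximal effect on Fgf4 over the 3 pairs was 3.18 (log2, SE 0.75, adjusted p = 0.241) and the dKO effect was -2.35 (SE 0.92, adjusted p = 0.383). Neither passed the threshold. The additive model assumes the same dKO effect in both parts, and proximal Fgf4 was near or below the floor in all conditions. Without any 1 pair the position effect did pass, with limma adjusted p between 4.72e-28 and 0.0253, and without the RA pair the dKO effect passed at 0.0149. With a pair omitted, 1 residual degree of freedom is left, and the p-values depend mostly on the variance pooled over genes. In those fits 170 to 226 of 12147 genes passed as higher distally, and 211 passed as lower in dKO without the RA pair. Fgf4 entered the dKO and RA pairs through the distal array alone, which set the sign there. The fit without the control pair rests on those pairs only, so its pass does not test the direction of the Fgf4 position effect.

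Fgf8, the ligand made along the whole ridge, had signals of 40.9 and 238 in the proximal and distal control parts. Corresponding signals were 25.0 and 109 in dKO and 6.87 and 137 in RA. All 3 distal arrays were above the floor and all 3 proximal arrays were below it. The share of all genes separated in this way was not counted. The distal excess was at least 3.72-fold in control and at least 2.17-fold in RA. In dKO the bound was 0.58 (log2). Distal Fgf8 was 2.18-fold lower in dKO than in control (log2 -1.13) and differed by -0.80 in RA. Without a floor, the distal dKO difference was -0.94 and no longer 2-fold. The position effect on Fgf8 in limma was 1.20 (log2, SE 0.26, adjusted p = 0.203), and without any 1 pair it passed, at adjusted p between 4.20e-05 and 0.0296. In those fits 170 to 226 of 12147 genes passed as higher distally. Fgf8 entered each pair through the distal array alone, so the sign of its position effect was set by the filter. Those passes therefore do not test its direction. The limma dKO effect was -0.47 (adjusted p = 0.751). Its proximal part is only the difference of the array floors (0.19), since proximal Fgf8 was below the floor in control and dKO.

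Fgf9, a ridge ligand that is also made in other epithelia, was above the floor on every array. Its signals were 98.5 and 192 in the control parts, 124 and 85.8 in dKO, and 139.6 and 206 in RA, each proximal and then distal. The distal part was the higher one in control and RA and the lower one in dKO. Differences within the pairs were 0.96, -0.53 and 0.56 (log2), none of them at 2-fold. Distal Fgf9 was 2.24-fold lower in dKO than in control (log2 -1.16), whereas proximal Fgf9 differed by 0.33. A second probe set was above the floor in the distal control part only, at 117, and was 38.8 in distal dKO and 53.5 in distal RA.

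This dKO value for Fgf9 lay close to the 2-fold limit, at -0.98 with all probe sets averaged and -0.93 without a floor. The distal RA difference of 0.10 turned to -0.10 when arrays were divided by their median, and to -0.52 with probe sets averaged. In limma, Fgf9 had a position effect of 0.33 (adjusted p = 0.679) and a dKO effect of -0.42 (adjusted p = 0.876).

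Fgf17, another posterior ridge ligand, was above the floor only in the distal control part, where its signal was 96.6. It was 11.7 in the proximal control part, 15.6 and 29.3 in the dKO parts and 17.2 and 45.3 in the RA parts. Its distal excess in control was at least 0.59 (log2), and its distal differences from control were bounds of -0.34 in dKO and -0.50 in RA. Since Fgf17 entered these comparisons through the distal control array, the sign of each was set by that array. Its second probe set reached the floor on the same array alone, at 59.9. The level of Fgf17 is thus measured in distal control alone and is below the floor elsewhere.

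**Figure D1:**
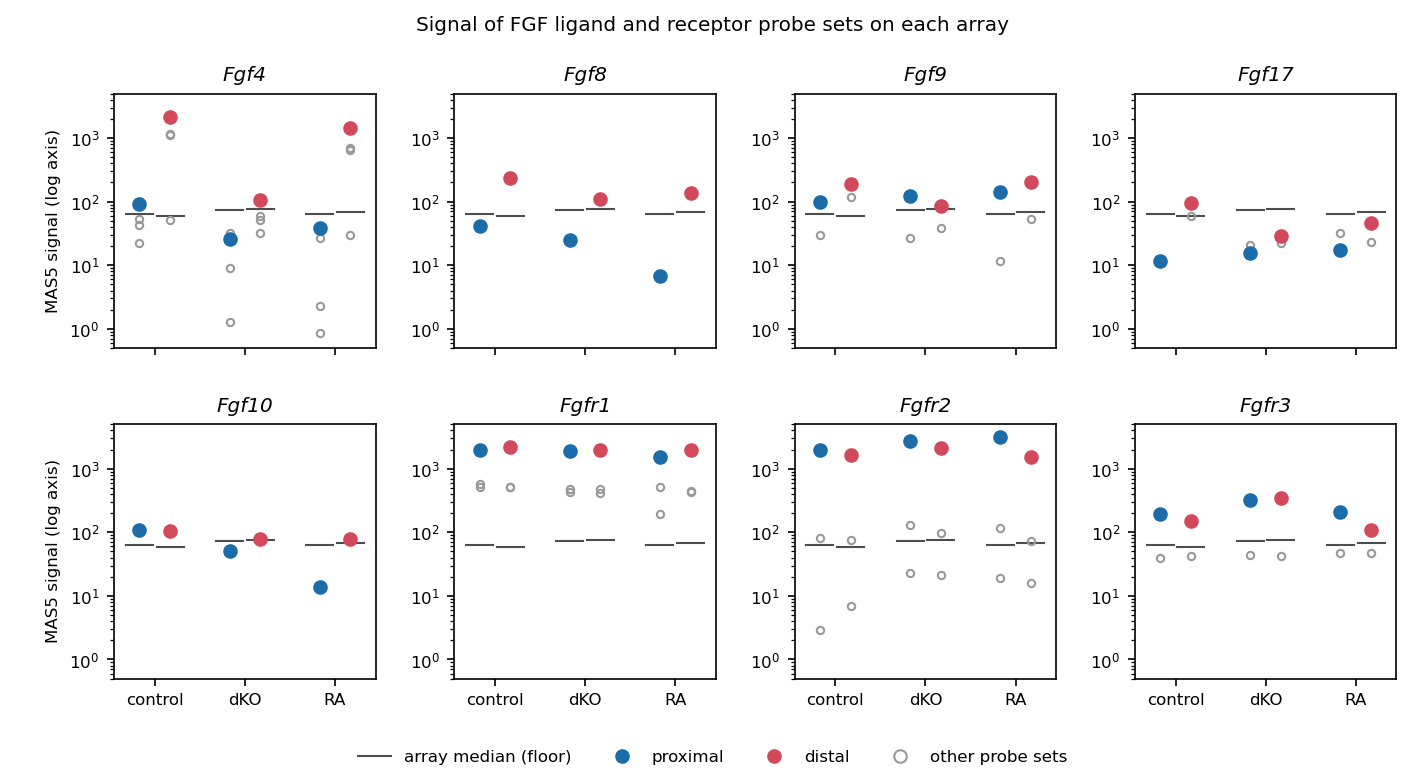
Signal of each FGF ligand and receptor (log scale, linear MAS5 units) on each of the 6 arrays, filled points for the brightest probe set of a gene, open points for its others and lines for the array floors. Fgf4 is high in the distal control (2141) and distal RA (1431) parts and at 104 in distal dKO, whereas the brightest Fgfr1 probe set stays between 1544 and 2201.

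Taken by role, the ridge ligands Fgf4, Fgf8 and Fgf9 were each lower by 2-fold or more in distal dKO than in distal control, and the sign for Fgf17 was set by its filter. Of all 8 members, 3 were lower at 2-fold in distal dKO, where 0.524% of all genes tested were lower, and 1 was higher, against 5.32% of all genes. In proximal dKO, 0 of the 6 members tested were higher and 0 lower, against 4.07% and 0.363% of all genes. In the control pair, 2 of 8 members were higher distally (1.4% of all genes) and 0 lower (1.35%). In the dKO pair, 0 of 7 were higher (0.722%) or lower (0.515%) as floored. Fgf4, Fgf8 and Fgf10 are bounds in that pair (at least 0.52, 0.58 and 0.11 on the log2 scale), so they may pass 2-fold uncounted. The same holds for Fgf4 (-0.34) and Fgf10 (-0.60) in proximal dKO, and for Fgf17 in the control pair and in distal dKO.

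RA gave another set of counts. In the RA pair, 2 of the 7 members tested were higher distally, Fgf4 and Fgf8, against 6.16% of all genes, and 1 was lower, Fgfr2, against 4.4%. Between RA and control, 0 of 6 members were higher proximally (3.69% of all genes) and 0 lower (6.8%). In the distal part, 0 of 8 were higher (2.16%) and 0 lower (2.13%). Proximal Fgf4 (-0.56) and Fgf10 (-0.81) and distal Fgf17 (-0.50) are bounds in RA against control (log2), so they may be lower by 2-fold uncounted. By limma, 0 of the 8 members passed for part, dKO or RA. At an unadjusted limma p under 0.05 there were 3, 3 and 1 members, against 1156, 1411 and 2032 of all 12147 genes. Among all genes 2.21% rose and 0.115% fell in dKO, 0.305% rose and 0.239% fell in RA, and 0 passed for part.

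**Figure D2:**
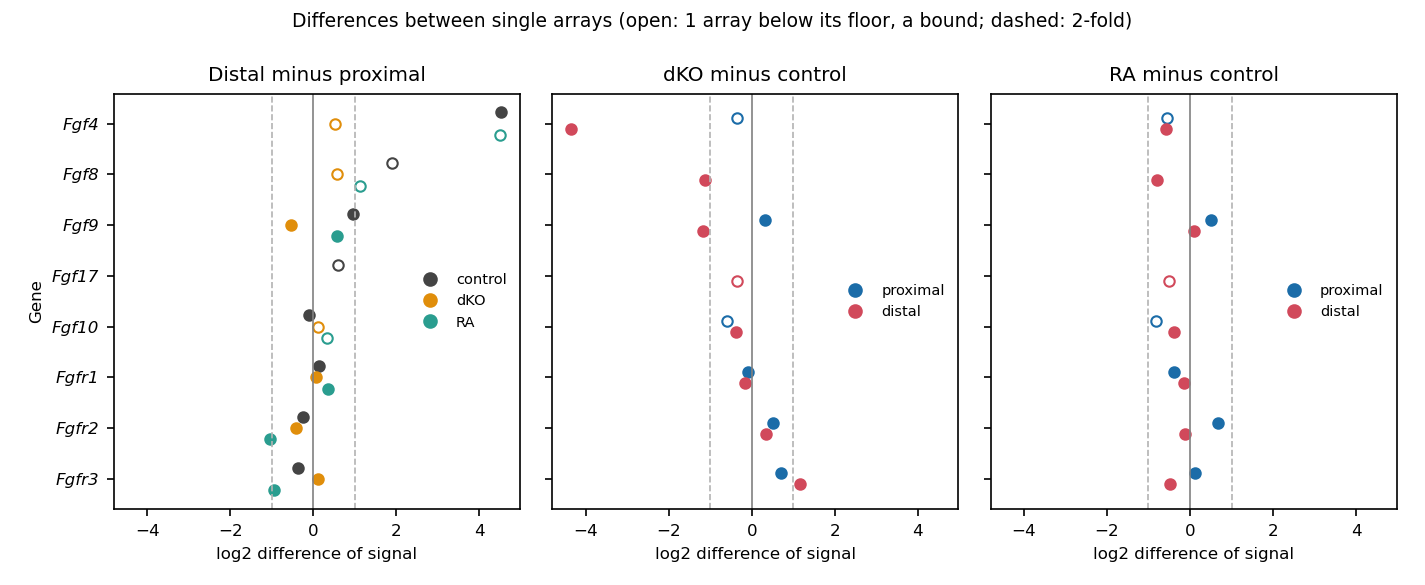
Log2 difference of each member in each comparison of single arrays, with open points for bounds and dashed lines at 2-fold. Fgf4, Fgf8 and Fgf9 lie beyond 2-fold lower and Fgfr3 beyond 2-fold higher in distal dKO. No plotted value is beyond 2-fold in RA against control, but proximal Fgf4 and Fgf10 and distal Fgf17 are bounds there and may hide a larger difference.

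The ridge ligands are made by a thin epithelium, and in a bulk sample fewer cells of a type and less RNA per cell cannot be told apart. The summed signal of the 13 surface ectoderm markers was 14762 and 23555 in the proximal and distal control parts, 16097 and 23379 in dKO, and 14053 and 18757 in RA. The distal dKO and distal control arrays thus had nearly equal sums. The list covers surface ectoderm in general and does not measure the amount of ridge. Of 12 markers tested in that comparison 0 were higher and 0 lower at 2-fold, and 5 were above 0 and 7 below, with a median of -0.07 (log2). When arrays were divided by their median, this median was -0.42, where that of all genes was -0.35. In distal RA the median was -0.47, and 2 of 12 markers were lower (2.13% of all genes), the basal keratin genes Krt14 (-1.41) and Krt5 (-1.17). In the control pair all 12 markers tested were higher distally, with a median of 0.76, and 2 were at 2-fold, Krt5 (1.91) and Epcam (1.19), a cell adhesion gene of epithelia.

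Genes that specify or maintain the ridge were compared as a list, with 9 on the array and 7 or 8 tested in each comparison. In distal dKO, 0 of 8 were higher and 0 lower at 2-fold (median -0.11, all genes 0.01). In the proximal dKO part 1 was higher, the homeobox gene Dlx5 (at least 1.28). Sp8, a zinc finger factor required for Fgf8 expression in the ridge, had signals of 1549.9 in distal control, 1380 in distal dKO and 1078 in distal RA. In proximal RA Sp8 was below the floor (58.7, against 604 in control), and 3 of 7 of these genes were lower there (6.8% of all genes), namely Sp8 (log2 -3.26, a bound), Sp6 (-1.59) and Bhlha9 (-1.53). In distal RA 2 were lower (2.13% of all genes), Bhlha9 (-1.96) and Dlx5 (-1.14). Bhlha9, a basic helix-loop-helix gene of the ridge, fell in RA in the limma fit (log2 -1.75, adjusted p = 0.0488), but not when arrays were divided by their median (adjusted p = 0.0741). In the control pair 4 of these 8 genes were higher distally (1.4% of all genes), Dlx5 (at least 1.94), Bhlha9 (1.54), Sp8 (1.36) and Sp6 (1.30).

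**Figure D3:**
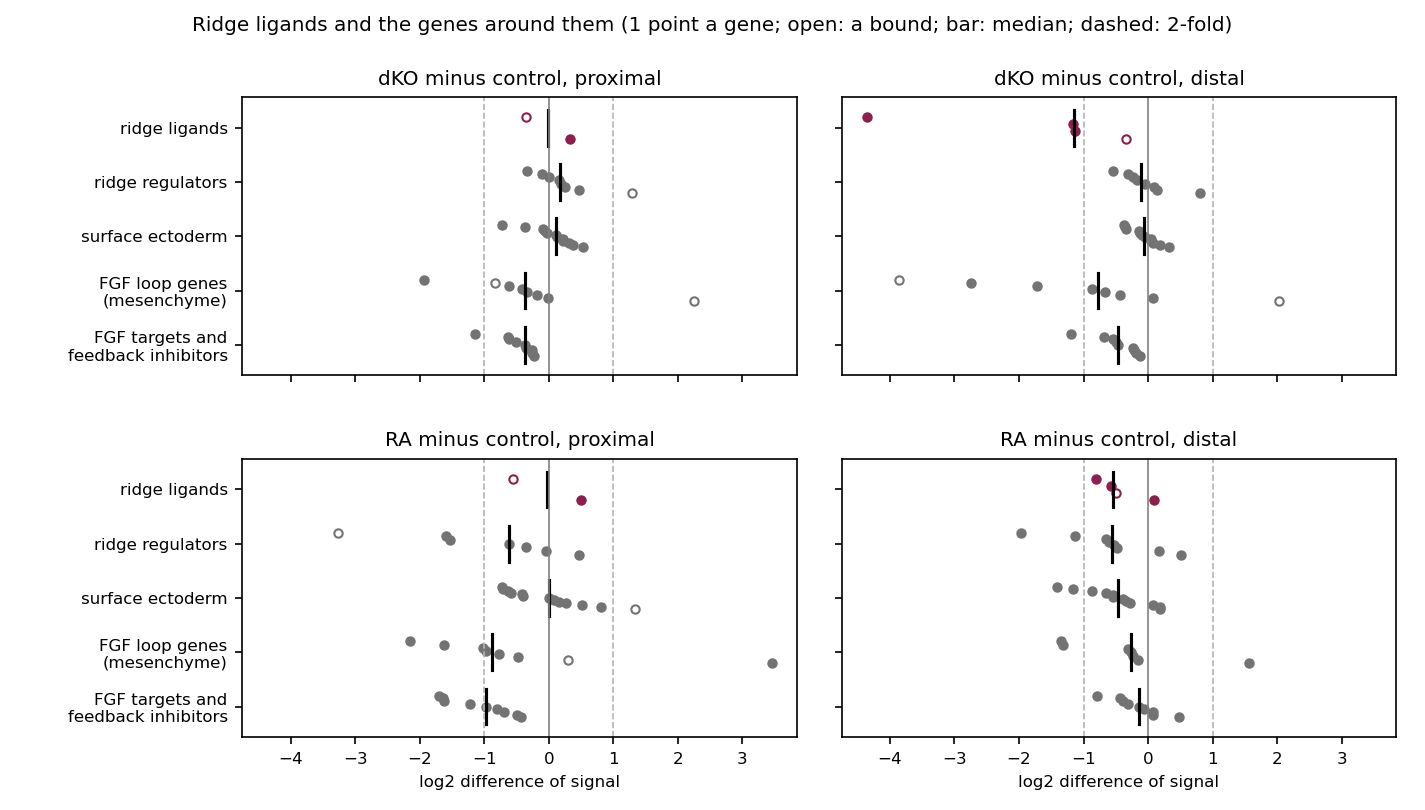
Log2 difference from control in dKO and RA, proximal and distal, for ridge ligands, ridge regulators, surface ectoderm markers, mesenchymal genes of the FGF loops and FGF targets, 1 point per gene, with open points for bounds, bars for medians and dashed lines at 2-fold. In distal dKO, Fgf4 (-4.36), Fgf8 (-1.13) and Fgf9 (-1.16) lie past 2-fold, and the medians of the ridge regulators and ectoderm markers are -0.11 and -0.07.

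Fgf10, the mesenchymal ligand, was low on all arrays and had 1 probe set. Its signals were 110.5 and 103 in the proximal and distal control parts, 51.2 and 79.0 in dKO, and 13.8 and 78.8 in RA. Both control arrays were above the other 4, an order whose share among all genes was not counted. The proximal dKO and proximal RA signals were below the floor. Control parts differed by -0.09 (log2). Compared with control, the distal difference was -0.39 both in dKO and in RA, and the proximal differences were bounds of -0.60 and -0.81. None reached 2-fold. Since Fgf10 was close to the floor, the proximal values give little of the size of the difference. In limma, the dKO effect on Fgf10 was -0.49 (log2, SE 0.19, adjusted p = 0.353) and the RA effect was -0.60 (SE 0.19, adjusted p = 0.223). Both missed the threshold. Proximal Fgf10 entered these comparisons through the control array alone, which set the sign there.

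Fgfr1, the main receptor of the limb mesenchyme, was bright and even. Its brightest probe set read 2001 and 2201 in the control parts, 1893 and 1965 in dKO, and 1544 and 1981 in RA. The 6 values spanned 0.51 (log2), with the proximal RA array lowest. Differences from control were between -0.37 and -0.08. A second probe set read 419 to 522, and another gave 568 in proximal control and 197 in proximal RA (log2 -1.53), so the probe sets of Fgfr1 disagreed in size for that array. In limma the dKO effect was -0.12 (adjusted p = 0.964).

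Fgfr2, whose isoforms receive FGF10 in the ectoderm and ridge FGFs in the mesenchyme, was higher in the proximal part of all 3 pairs. How many of all genes had the same order was not counted. Fgfr2 signals were 1941 and 1641 in the control parts, 2758 and 2079 in dKO, and 3113 and 1519.6 in RA. Distal minus proximal was -0.24 (log2) in control, -0.41 in dKO and -1.03 in RA, the last 2.05-fold. Proximal Fgfr2 exceeded control by 0.51 in dKO and 0.68 in RA, and the distal differences were 0.34 and -0.11. The distal dKO value was -0.01 when arrays were divided by their median. A dimmer probe set had the same order of parts, with 82.1 and 75.0 for control, 131 and 96.7 for dKO and 118 and 73.7 for RA, and another was below the floor on all arrays. The probe sets were not separated by isoform in the annotation used. Position had an effect of -0.56 in limma (SE 0.17, adjusted p = 0.386), and dKO of 0.42 (SE 0.21, adjusted p = 0.589). Without the RA pair the dKO effect passed in limma, at adjusted p = 0.00681. In that fit 1236 of 12147 genes passed as higher in dKO.

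Fgfr3, known for its part in cartilage growth, was dimmer than Fgfr2 as a signal, although levels of different probe sets cannot be ranked. It read 196 and 152 in the control parts, 320.1 and 343 in dKO, and 211 and 109.6 in RA. Both dKO arrays were above the other 4, and the share of all genes with that order was not counted. Compared with control, Fgfr3 differed by 0.71 (log2) in the proximal and 1.17 in the distal dKO part, and by 0.11 and -0.47 in RA. Its second probe set was below the floor on all arrays, at 38.9 to 47.7. The distal dKO difference was 0.82 when arrays were divided by their median and 0.59 with probe sets averaged, under 2-fold in both cases. In limma the dKO effect on Fgfr3 was 0.94 (log2, SE 0.30, adjusted p = 0.243), and without the RA pair it passed at adjusted p = 0.00651. In that fit 1236 of 12147 genes passed as higher in dKO.

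Direct transcriptional targets and feedback inhibitors of FGF signalling, a list of 9 genes on the array, were read beside the ligands. All 9 were lower than control in both dKO parts, with medians of -0.36 (log2) proximally and -0.47 distally, where 47.2% and 48.8% of all genes were below 0. The count was 9 of 9 in both parts under quantile normalization too. Only Spry1, a feedback inhibitor of receptor tyrosine kinase signalling, reached 2-fold. It read 242 and 553 in the control parts, 109.99 and 243 in dKO, and 149 and 318 in RA, so that its distal excess was 1.19 in control, 1.14 in dKO and 1.09 in RA. The dKO differences of Spry1 were -1.14 and -1.19, and its limma adjusted p was 0.0613. Of the 9 targets, 0 passed for any effect in limma, and 7, 2 and 3 had an unadjusted p under 0.05 for part, dKO and RA. Among all 12147 genes, 1156, 1411 and 2032 did.

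In proximal RA all 9 targets were again below control, with a median of -0.98, and 4 were lower at 2-fold (6.8% of all genes): Spry4 (-1.71), Spry2 (-1.64), Etv5 (-1.62) and Spred2 (-1.22). Spry4 and Spry2 are inhibitors of the Sprouty family, Etv5 is an ETS factor induced by FGF, and Spred2 is a related inhibitor. With all probe sets of a gene averaged, Spry4 and Spry2 were at -0.90 and -0.60, and Spred2 was at 0.12. Distal RA had 0 of 9 at 2-fold and a median of -0.14. Etv5 read 1804 and 2156 in the control parts, with 1534 and 1892 for dKO and 586 and 1651 for RA. In the RA pair 6 of 9 targets were higher distally (median 1.09, 6.16% of all genes higher), and in the control pair 1 of 9 (median 0.42, 1.4% of all genes). These counts were 4 and 2 after division by array medians. The low values were thus those of the proximal RA array, which also stood apart in the features given above.

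Mesenchymal genes of the FGF loops numbered 8 on the array. In distal dKO 1 was higher (5.32% of all genes) and 3 were lower (0.524%), with a median of -0.77. In distal RA 1 of 7 was higher (2.16%) and 2 were lower (2.13%). In the control pair 4 of 7 were higher distally (1.4%) and 0 lower (1.35%). Shh, the posterior signal that FGF4 maintains, read 130.1 and 1099 in the control parts, with 72.8 and 57.6 for dKO and 64.0 and 433 for RA. Distal Shh thus resembled distal Fgf4 in being near or below the floor in dKO and high in control and RA. Its distal dKO difference was -3.85 (a bound) and its distal RA difference was -1.34. Grem1 read 357 and 1208 in the control parts, with 234 and 368 for dKO and 80.9 and 483 for RA, with distal differences of -1.71 in dKO and -1.32 in RA. Cyp26b1, which degrades RA in the distal bud, fell in dKO (limma log2 -2.34, adjusted p = 0.0483), with proximal and distal differences of -1.93 and -2.74, and was higher in RA by 3.46 and 1.56. Divided by array medians, its dKO effect had an adjusted p of 0.0909. Isl1, a LIM homeobox gene upstream of Shh in the hindlimb, rose in dKO (limma log2 2.14, adjusted p = 0.00625), from 34.1 and 36.9 to 305 and 243. Both Isl1 control signals were below the floor, so both differences are bounds. Isl1 entered these comparisons through the dKO arrays alone, which set the sign.

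Other FGF ligands numbered 17 on the array, and 7 of them were above the floor on at least 1 array. In distal dKO 3 of the 6 tested were higher and 0 lower, namely Fgf13 (1.65), Fgf11 (1.18) and Fgf15 (at least 1.04), where 5.32% of all genes were higher and 0.524% lower. The count was 1 higher and 1 lower under either other scaling. FGF11 and FGF13 are intracellular members of the family that are not secreted. Fgf11 rose in dKO in limma (log2 1.07, SE 0.18, adjusted p = 0.0388), from 29.1 to 125 proximally and from 75.3 to 170.3 distally. The proximal control signal of Fgf11 was below the floor, so the proximal difference is a bound whose sign was set by the dKO array. Fgf11 signals in RA were 25.9 and 37.0. Divided by array medians, the adjusted p was 0.139. Fgf5 was higher in proximal dKO (at least 1.47), at 177 against 30.3 in control. Fgf18, a ligand of mesenchyme and bone, was higher in distal RA by 1.51, at 318 against 112.

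The genes with the most similar profiles were found by the root mean square difference of centred log2 values over the 6 arrays, for the 5 members whose values spanned at least 1. The nearest to Fgf4 were Shh (0.73), Tent5a (1.02) and Sall3 (1.10). Fgf8 was nearest to Pdzd2 (0.13), St14 (0.16), a protease gene of epithelia, and Abca4 (0.22). Fgf9 was nearest to Mdrl (0.20), Fancc (0.21) and Lyz2 (0.22), the last a lysozyme gene of macrophages. Fgfr2 was nearest to Ecscr (0.06), Ociad2 (0.07) and Smug1 (0.08), and Fgfr3 to Fam174b (0.06), Abhd11os (0.08) and BC028528 (0.10). Fgf4 had by far the widest span (5.09) and the largest distances, and the narrow spans of Fgfr2 (1.03) and Fgf9 (1.26) leave room for many genes of like profile. These distances describe 6 arrays and carry no test.

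**Figure D4:**
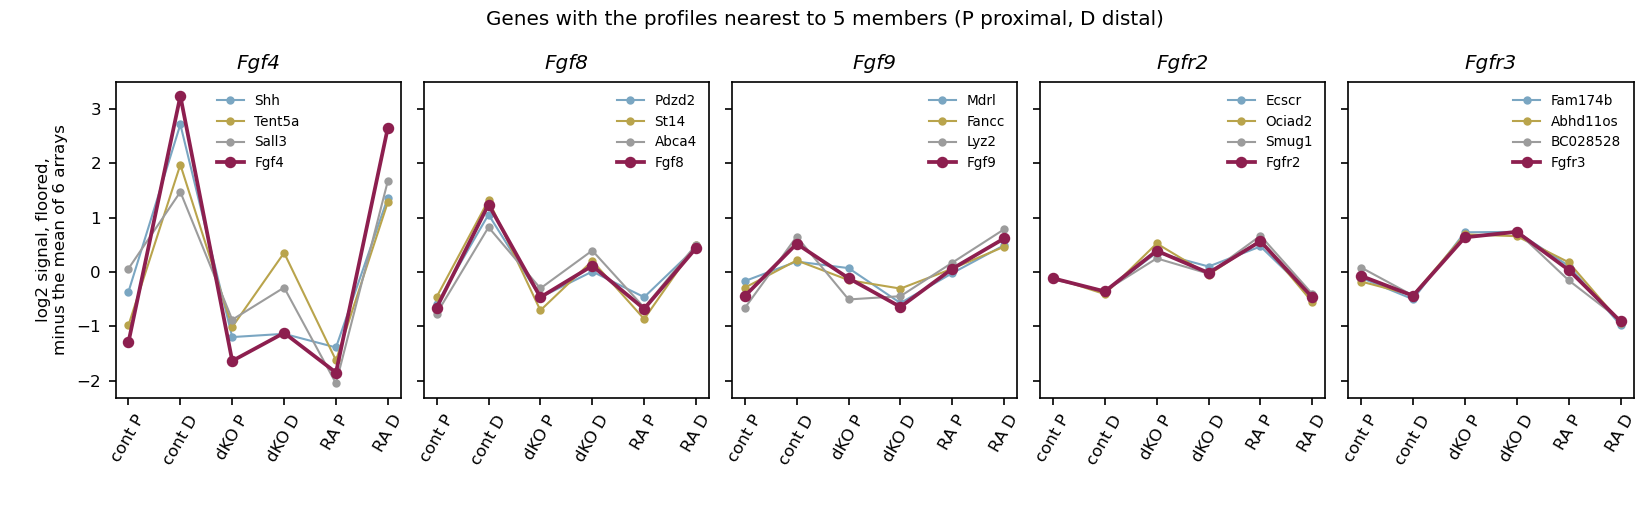
Log2 signals, floored and centred on their mean over the 6 arrays, of the 5 members spanning at least 1, each with its 3 nearest genes. Shh follows Fgf4 with a root mean square difference of 0.73, both being high in distal control and distal RA.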

How the data were processed

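RNA of 6 forelimb bud samples was measured on 1-colour Affymetrix arrays. The deposited values are linear signal intensity made by the authors with MAS5, per the submitters' processing notes. No source used here states which MAS5 version was used. The values match scaling of each array to a trimmed mean (2% at each end) of 500. Probe sets were named from the platform annotation: 34958 had 1 gene symbol, 932 several and 9211 none. A gene was read from its brightest probe set, floored at the array median, in log2 of the deposited intensity. Differences of single arrays were counted at 2-fold. The fit (limma 3.58.1, R 4.3.3) had condition and part as terms, a trended prior variance (2 residual and 4.64 prior degrees of freedom) and Benjamini-Hochberg adjustment over 12147 genes, and was tested on simulated data. The simulation had additive position effects, equal noise for all genes and no floor. It therefore does not gauge the fit for genes near the floor or where pairs disagree. All 8 members are named, and of each list up to 4 genes, those with the largest differences at 2-fold in a comparison. Shh, Sp8, Spry1, Etv5, Grem1, Fgf5, Fgf11 and Isl1 are also described by signal. The members and lists were chosen with earlier results of these data known. Alternatives were other scalings, no floor, no filter, averaged probe sets and omitted arrays. Promoter sequences are from RefSeq.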

Additional observations from a re-analysis of the deposited data

Results flagged for a closer look

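Fgf9 and Fgfr3 had differences of opposite sign in comparisons of the same kind, at least 1 apart on the log2 scale. Each rests on 4 single arrays, or fewer where an array is shared, and the contrast between the differences was not tested. For Fgf9, distal minus proximal was 0.96 in control and -0.53 in dKO, which is -1.49 between them. The same 4 arrays give dKO minus control as 0.33 proximally and -1.16 distally, again -1.49 apart, so these are 1 pattern. In RA, Fgf9 distal minus proximal was 0.56, which is 1.09 above dKO. For Fgfr3, distal minus proximal was 0.10 in dKO and -0.95 in RA, a contrast of -1.05. Fgf9 was at most 206 and Fgfr3 at most 343 in signal.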

How the results depend on the processing

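Signals near the floor and the lack of replicate arrays limit every value, and for Fgf4, Fgf8, Fgf10 and Fgf17 most of the differences tested are bounds. The position effect already compares the parts within the 3 conditions. A block on replicate number could not be fitted, because the labels carry no such numbers and each group has 1 array. Member counts at 2-fold kept to within 1.5 times except as follows. Without a floor they were 2 in place of 0 in the dKO pair, and 1 in place of 0 in proximal dKO and in proximal RA. With probe sets averaged they were 1, 2 and 1 in place of 0, 4 and 0 in proximal dKO, distal dKO and proximal RA. Proximal Fgfr2 was then 1.38 in dKO and 1.30 in RA, which rests on a probe set below the floor on every array. Spred2 in proximal RA, -1.22, turned to 0.12, and Shh and Fgf13 in distal dKO were at -0.94 and 0.94. Of the differences within pairs, Fgf9 in control was 1.07 after division by array medians and 1.23 with probe sets averaged, Fgfr3 in RA was -1.06 after division by array medians, Fgf8 in RA was 0.97 after quantile normalization and Fgfr2 in RA was -0.65 with probe sets averaged.

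Over all genes, limma called 283 for dKO. Dividing by array medians gave 115, quantile normalization 87, no filter 7656, omitting the RA pair 1447 and omitting the proximal RA array 1435. It called 66 for RA, and 35, 15 and 1245 under the first 3 of these and 537 without the dKO pair. For part it called 0, but 768 with no filter, and 431, 294 and 354 with the RA, the control or the dKO pair omitted, and 429 with the proximal RA array omitted. Members called went from 0 to 3 for dKO with no filter and in both fits omitting RA arrays, to 1 for RA with no filter, and for part to 3 with no filter and 2 in each of the others. These fits tested 12147 genes, or 18193 with no filter, so the member counts stand beside large shares of all genes. The 6046 genes added with no filter hold only array floors.

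With arrays divided by their medians, the median difference of all genes was -0.35 in distal dKO, -0.17 in proximal dKO, -0.24 in distal RA, -0.17 in the RA pair and 0.10 in the control pair. As deposited, these medians were between -0.06 and 0.02. The share of calls that were higher went from 91.0% to 62.6% in distal dKO, from 50.3% to 27.3% in distal RA, from 58.3% to 42.4% in the RA pair, from 58.3% to 44.4% in the dKO pair and from 50.8% to 61.3% in the control pair. Direction was compared only for single-gene values that had passed the threshold, so values under it could change sign uncounted. Among single genes, 637 values kept their side of the threshold, 41 no longer passed it and 35 newly passed it. Of those that had passed it, 1 reversed. The cause was not tested.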

Other observations

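Receptor adaptors, which carry the signal from activated FGF receptors into the cell, had 5 of 6 measured genes above the floor, and 0 were higher or lower at 2-fold in any of the 7 comparisons of single arrays. Among cofactors, Flrt3, a membrane protein that binds FGF receptors, read 778 and 906 in the control parts, with 650 and 665 for dKO and 878 and 386 for RA. The distal RA signal was the low one, -1.23 (log2) against control and -1.19 against proximal RA, and -0.95 and -0.47 with probe sets averaged.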
